A study of Fragaria vesca with 9 samples.

Results

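The MYB-domain genes of woodland strawberry, Fragaria vesca, were followed in fruits of 2 mutant lines and of wild type. A gene was taken as a member when its deposited description listed the Pfam domain PF00249 (Myb-like DNA-binding domain) and not PF00226 (DnaJ domain). This gave 170 members of 34777 listed genes. The rule used descriptions only and no expression value, though it was set with earlier results of these data known. All groups were fruits picked 26 days after anthesis, and the gene under study was FvMATE51, whose product the series title places in the vacuolar membrane. Line 1 is the Fvmate51-1 mutant, line 2 is the Fvmate51-2 mutant, and wild type (WT) is the group they were set against, with 3 poly(A) RNA libraries in each group. The labels do not say how the lines were made, whether fruits were pooled or whether the 3 replicates came from separate plants. The p-values therefore measure only the spread between these libraries, which may be technical. Levels are FPKM, the deposited unit, in which fragment numbers are divided by gene length and library size.

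MYB proteins bind DNA through helix-turn-helix repeats. R2R3 members carry a pair of these repeats and include the main regulators of anthocyanin, flavonol, lignin and cuticle synthesis. They often work in a complex with a bHLH protein and the WD-repeat protein TTG1. Members with a single repeat include clock proteins of the LHY and REVEILLE type, the DIVARICATA and MYBS types, and small R3 proteins that compete with R2R3 activators for the bHLH partner. The same Pfam domain is also found in GARP factors, which respond to phosphate, nitrate and cytokinin, and in telomere-binding and chromatin proteins.

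Fragments in listed genes numbered 31587667 to 51649115 per library. WT replicate 3 and line 1 replicate 2 stood apart from their groups on the third principal component of all tested genes (19.4 and 14.8, against -12.7 to 4.3 in the other libraries). Both are kept, and values without a library are given where they change a call of a named member. No description names FvMATE51, so its own level is not analysed here.

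Markers of the tissues in a strawberry fruit moved between the groups as well. Of 101 genes listed as markers of ripe flesh, 32 were tested and 29 were at 0 in all 9 libraries, and 18 were lower and 1 higher in both lines together against WT. Both lines together stands for the mean of the 2 line means, set against the WT mean. In line 1, 21 were lower and 1 higher, and in line 2, 6 were lower and 6 higher. As background for these and the other marker counts, 18.1% of all tested genes were lower and 16.8% higher in both lines together. The shares were 19% and 16.5% in line 1 and 15.1% and 15.3% in line 2. Most of the markers lower in line 1 were Fra a 1 allergen genes lying close together on chromosome 4. In line 2, FvH4_4g19050, FvH4_4g18990, FvH4_4g19040 and FvH4_4g19061 of these were called higher (log2 change 1.09, 1.35, 1.02 and 0.63). FvH4_4g18830 was called lower there (-0.85), and the other tested Fra a 1 genes were not called. The list was drawn by description words and also took in polygalacturonase inhibitors. The listed genes summed to 10500 to 10900 FPKM in line 1, 12400 to 12800 in line 2 and 13600 to 15600 in WT. The furanone reductase FvH4_6g50700, of a flesh aroma pathway, stood at 5310 ± 193, 5270 ± 141 and 6850 ± 834 FPKM in line 1, line 2 and WT (SD, n = 3 each). The polygalacturonase FvH4_6g41380 was at 3710 ± 4.09, 4710 ± 62 and 4700 ± 69 FPKM in the same order. The strawberry allergen gene Fra a 1.08 FvH4_4g18850 stood at 0.175 ± 0.103, 21.4 ± 0.511 and 23.3 ± 6.52 FPKM (log2 change -4.34 in line 1, limma adjusted p = 1.58e-08, and -0.09 in line 2, adjusted p = 0.699).

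Achene markers differed mainly in line 2. Of 24 listed, 13 were tested and 3 were at 0 in all libraries, and 1 was lower and 2 higher in line 1, against 9 lower and 2 higher in line 2 (8 lower and 2 higher in both lines together). The oleosin FvH4_7g26900, a seed oil-body protein, was at 31 ± 10.4, 8.36 ± 3.56 and 41.2 ± 8.76 FPKM in line 1, line 2 and WT (limma adjusted p = 0.238 in line 1 and 0.000143 in line 2). The seed storage gene FvH4_3g33180 was at 23 ± 8.37, 6.11 ± 2.12 and 26.3 ± 8.58 FPKM, and another listed as vicilin-like, FvH4_1g13730, at 40.6 ± 4.21, 94.2 ± 4.33 and 26.7 ± 3.23 FPKM, higher in each line. The summed level of the list, which adds genes that fell and genes that rose, was 330 to 434 FPKM in line 1, 305 to 367 in line 2 and 321 to 417 in WT. Of 3 tested epidermal markers (10 listed, 3 at 0 in all libraries), limma called 0 in line 1, where 0 had an unadjusted p under 0.05. In line 2, 1 was lower, HDG1 FvH4_7g13350, at 5.12 ± 0.557, 3.93 ± 0.269 and 5.24 ± 0.535 FPKM in line 1, line 2 and WT (adjusted p = 0.0323 against WT and 0.0482 against line 1). The call against WT was lost without WT replicate 1 or 2 or any line 2 replicate (adjusted p = 0.0549 to 0.114), and that against line 1 without these or line 1 replicate 1 or 3 (0.0513 to 0.152). The epidermal list summed to 37 to 39.3, 37.2 to 39.4 and 31.3 to 39 FPKM in line 1, line 2 and WT. The 1 tested pollen marker (10 listed, 4 at 0 in all libraries) was not called, and that list summed to 17.1 to 22.6, 20.2 to 22.5 and 18.9 to 22.6 FPKM. These shifts ran beside the member calls below in the same lines, and their part in them was not tested. In bulk fruit, fewer cells of a type and less RNA per cell cannot be told apart.

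Most R2R3 genes of the genome were silent or nearly so in these fruits, whereas most single-repeat and GARP genes were expressed. By the words of their description, 97 members were R2R3 MYBs, 20 GARP factors, 16 of the DIVARICATA and MYBS type, 8 chromatin or other complex proteins, 5 clock-type, 5 telomere-binding, 4 with 3 repeats (3R) and 1 a small R3 protein. The other 14 could not be placed. Of the 170 members, 67 were tested, those with 3 or more of the 9 libraries at 1 FPKM or above. Another 54 were above 0 but under that filter, and 49 were at 0 in all 9 libraries. The tested members were 19 of 97 R2R3 genes, 13 of 20 GARP genes, 10 of 16 DIVARICATA and MYBS genes, 5 of 5 clock-type genes, 7 of 8 complex proteins, 4 of 5 telomere-binding proteins, 1 of 1 R3 gene, 0 of 4 3R genes and 8 of 14 unplaced genes. Across the 67, 25 had a mean of at least 10 FPKM over all libraries, 38 lay between 1 and 10 FPKM, and 4 lay under 1 FPKM. A single gene, the R2R3 member FvH4_5g32460, held 21.7 to 26.3% of the summed level of all members in line 1, 19.3 to 21.3% in line 2 and 19.9 to 21.9% in WT. The summed level itself was 909 to 966 FPKM in line 1, 939 to 961 FPKM in line 2 and 891 to 906 FPKM in WT.

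**Figure D1:**
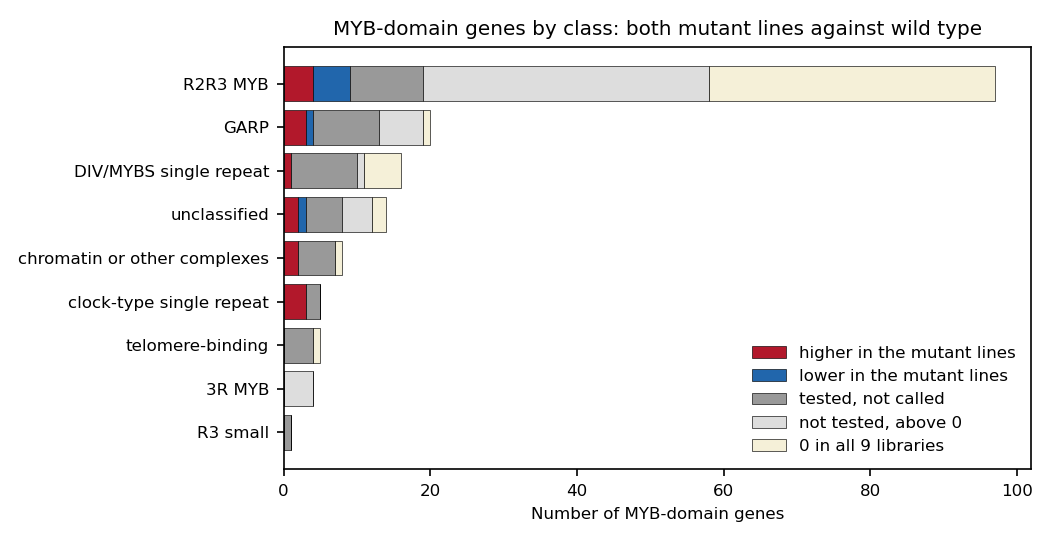
Number of MYB-domain genes in each class (horizontal axis), split by their result for both mutant lines against WT. Of the 97 R2R3 genes, 39 were at 0 in all 9 libraries and 39 more lay under the filter, while all 5 clock-type genes were tested.

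Both lines together differed from WT at about as many members as in the rest of the genome, and no called change reached 2-fold on the scale of FPKM + 1. limma called 22 of 67 members at an adjusted p under 0.05 (Benjamini-Hochberg over all 15890 genes tested, two-sided). In the mean of the lines, 15 were higher and 7 lower, and such a call can rest on a single line. KUA1 FvH4_1g07170 counts as higher and MYB62 FvH4_5g11930 as lower, though each was called in opposite directions in the lines. Across all tested genes 34.9% were called, 16.8% higher and 18.1% lower. The groups did not overlap at 14 of 67 members, against 24.3% of all tested genes. Called changes of at least 2-fold on FPKM + 1 were seen in 0 of 67 members, against 3.18% of all tested genes. The median log2 change was 0.02 over the members and 0.001 over all tested genes.

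Taken line by line, 29 of 67 members were called in line 2 and 23 in line 1, counts whose difference was not tested. In line 1, 14 members were higher and 9 lower than in WT, with 16.5% and 19% of all tested genes as background (35.5% in either direction). The split in line 1 was 16 higher and 6 lower when each library was rescaled to the same FPKM sum, and the share of higher among called genes over all tested genes was 61.8% in place of 46.4%. In line 2, 19 members were higher and 10 lower, with 15.3% and 15.1% as background (30.4% in either direction). Without line 2 replicates 1, 2 or 3 in turn, the line 2 count was 21, 19 and 18 members in place of 29, and that of higher members was 12, 12 and 10 in place of 19. The median absolute log2 change of the members was 0.269 in line 2 and 0.212 in line 1, where all tested genes had 0.215 and 0.233. Line 1 and line 2 did not overlap WT at 28 and 42 of 67 members, against 47% and 49.7% of all tested genes. On that scale, called changes of at least 2-fold were seen in 0 members in line 1 (4.36% of all tested genes) and in 3 members in line 2 (4.7%), namely MYB73, KUA1 and MYB63. Both comparisons share the WT libraries. Set against each other directly, line 2 was higher than line 1 at 16 members and lower at 11 (background 15.4% and 12.2%, or 27.6% in either direction). With equal FPKM sums the split was 12 higher and 12 lower, and the share of higher calls over all tested genes was 40.5% in place of 55.9%. These groups did not overlap at 38 of 67 members, against 46.1% of all tested genes, and 5 members differed by at least 2-fold on FPKM + 1, against 4.68%. On a principal component analysis of the 67 members alone, component 1 (61% of the variance) ran from -2.17 to -1.41 in line 1 and from 2.25 to 2.73 in line 2, with WT between them at -1.37 to -0.34. Component 2 (23.7%) placed WT at 1.35 to 1.69 and all 6 mutant libraries at -1.32 to -0.08. All tested genes also set the groups apart. Their component 1 (41.5%) was 32.2 to 34.2 in line 1. It was -5.8 to -1.1 in line 2 and -37.9 to -25.2 in WT.

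**Figure D2:**
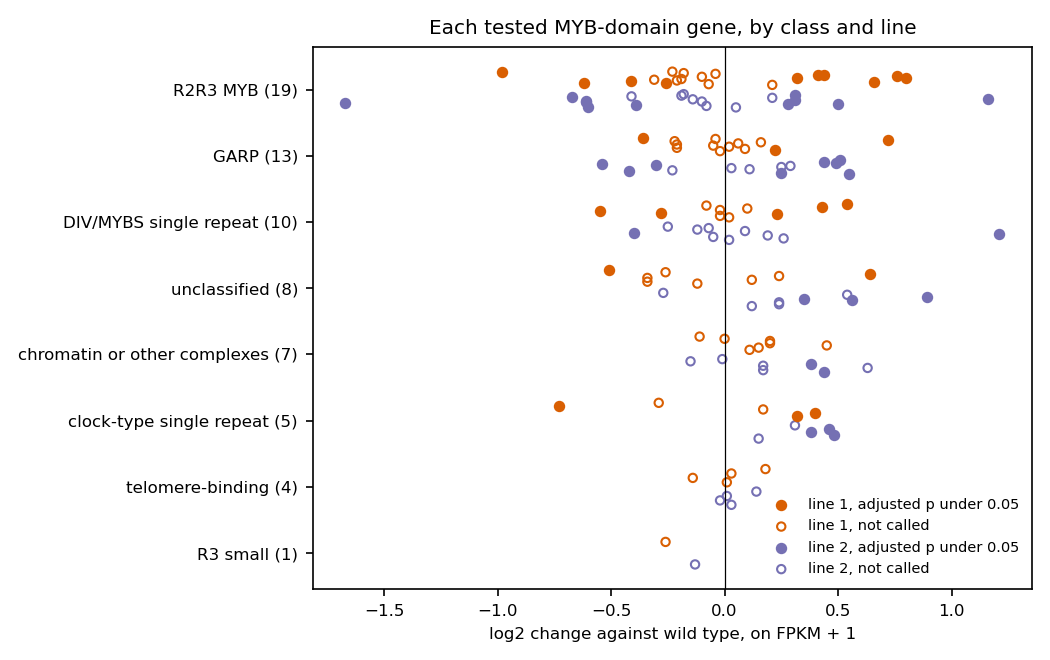
log2 change of each tested member against WT on FPKM + 1 (horizontal axis), by class, with line 1 above line 2 in each row and filled points for an adjusted p under 0.05. The R2R3 genes spread the widest, down to -1.67 for MYB73 in line 2, and all 4 telomere-binding genes lay near 0.

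Among R2R3 genes named for activators of flavonoid synthesis, the anthocyanin-type MYB113 was lower in line 2, and the most abundant member did not pass the test. FvH4_1g22020, matched to MYB113 of Arabidopsis, an activator of anthocyanin genes, lies on chromosome 1 (13950290 to 13952507, in the coordinates of the deposited table, whose build is not given in the sources used here). It stood at 37.7, 51.6 and 38.4 FPKM in line 1, at 31.4, 28.8 and 27.1 in line 2, and at 43.7, 41.2 and 48.4 in WT. All line 2 libraries were below all others, while line 1 overlapped WT. MYB113 was 1.53-fold lower in line 2 than in WT (log2 change -0.60 ± 0.12 SE, limma adjusted p = 0.00393) and 1.46-fold lower in line 2 than in line 1 (adjusted p = 0.00799). In line 1 the adjusted p was 0.658. For both lines together the call (log2 change -0.33, adjusted p = 0.0297) was lost when WT replicate 1 or 3, line 1 replicate 1 or 3, or line 2 replicate 2 or 3 was left out (adjusted p = 0.0556 to 0.109). That call was also lost with no filter, equal FPKM sums or the replicate number as a block (0.0551 to 0.058).

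FvH4_5g32460 (chromosome 5, 23421180 to 23422756), matched to MYB1 of Crocosmia, was the most abundant MYB gene of the fruit. It had 204, 254 and 197 FPKM in line 1, 202, 203 and 181 in line 2 and 188, 177 and 199 in WT. The log2 change was 0.21 ± 0.10 (SE) in line 1 and 0.05 ± 0.10 in line 2, with limma adjusted p of 0.131 and 0.705. Rescaled to the same FPKM sum per library, it passed the test in line 1 (adjusted p = 0.0244). FvH4_3g45450, matched to MYB5, which acts in seed coats and trichomes of Arabidopsis, had 24.4, 21.7 and 24.6 FPKM in line 1, 25.7, 27.1 and 27.4 in line 2 and 27, 28.3 and 29.8 in WT. MYB5 was lower in line 1 (adjusted p = 0.0225), a call lost with the same rescaling (adjusted p = 0.13), without WT replicate 2 (0.0528) and without line 1 replicate 2 (0.0501).

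The words used to find activators also took in 3 other expressed genes named MYB1. FvH4_6g12440, matched to MYB1 of Arabidopsis, which is not among the anthocyanin regulators of that species, rose in both lines. It had 13.7, 12.6 and 12.9 FPKM in line 1, 11.1, 11.5 and 12.3 in line 2 and 7.77, 8.08 and 7.83 in WT. All 6 mutant libraries lay above the 3 WT libraries, 1.65-fold higher in line 1 and 1.47-fold in line 2 (adjusted p = 9.02e-05 and 0.00058). FvH4_7g23750, with the same match, averaged 5.27 ± 0.328, 5.68 ± 0.193 and 6.20 ± 1.10 FPKM in line 1, line 2 and WT (SD, n = 3 each) and was not called, though without WT replicate 2 it passed as lower in line 1 (adjusted p = 0.0299) and in both lines together (0.0359). FvH4_1g08370, a second match to MYB1 of Crocosmia, averaged 2.02 ± 0.508, 1.33 ± 0.158 and 2.09 ± 0.327 FPKM. Its adjusted p in line 2 was 0.0515 with all libraries, and 0.0444 and 0.0263 without line 1 replicate 2 or 3. Line 2 against line 1 was called for it without line 1 replicate 3 (adjusted p = 0.0185). In all, 21 listed members carried an activator name, 6 were tested, and 1 was higher and 1 lower in both lines together. Over all tested genes, 16.8% were higher and 18.1% lower.

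Of the R2R3 genes named for repressors, MYB4 fell in both lines, and the gene matched to Myb-related protein 330 moved in opposite directions. FvH4_4g32290 (chromosome 4, 31004986 to 31007005) is matched to MYB4 of Arabidopsis, a repressor of the phenylpropanoid gene for cinnamate 4-hydroxylase. It had 9.91, 10.2 and 10 FPKM in line 1, 11.8, 11.9 and 12.2 in line 2 and 16.2, 16.2 and 15.6 in WT. The 3 groups were fully apart, and each was tight. MYB4 was 1.59-fold lower than WT in line 1 and 1.34-fold lower in line 2 (limma adjusted p = 6.38e-05 and 0.0015), and both calls held in each of the 15 alternatives run. It was the 1 member called lower in each line, where 7.76% of all tested genes were.

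Myb-related protein 330 of Antirrhinum represses phenolic acid and lignin synthesis when expressed in tobacco. Its match FvH4_5g32320 (chromosome 5, 23337866 to 23339705) had 7.35, 5.95 and 6.84 FPKM in line 1, 11.1, 10.9 and 12.2 in line 2 and 8.86, 9.74 and 9.17 in WT. Line 2 was 1.7-fold above line 1 (adjusted p = 0.000251), and WT lay between them without overlap. The fall in line 1 was called (adjusted p = 0.00613). The rise in line 2 (adjusted p = 0.0429) was lost without WT replicate 1, 2 or 3, line 1 replicate 3, or line 2 replicate 1, 2 or 3 (adjusted p = 0.0568 to 0.154). FvH4_3g03680, matched to MYB4 of rice, averaged 1.06 ± 0.215, 1.13 ± 0.0627 and 1.43 ± 0.421 FPKM in line 1, line 2 and WT and was not called. Of 15 members with a repressor name, which include the R3 gene below, 4 were tested, 0 higher and 1 lower in both lines together. The background over all tested genes was 16.8% higher and 18.1% lower.

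The small R3 gene FvH4_7g16170, matched to CPC, which in Arabidopsis competes with R2R3 proteins for bHLH partners, had 9.88, 12.9 and 9.01 FPKM in line 1, 12.5, 11.6 and 10.7 in line 2 and 13.8, 12.3 and 12.2 in WT. It was not called with all libraries (adjusted p = 0.118 in line 1). Without line 1 replicate 2, the highest of that group, it was called lower in line 1 (log2 change -0.40, adjusted p = 0.0128) and in both lines together (-0.26, adjusted p = 0.0268).

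**Figure D3:**
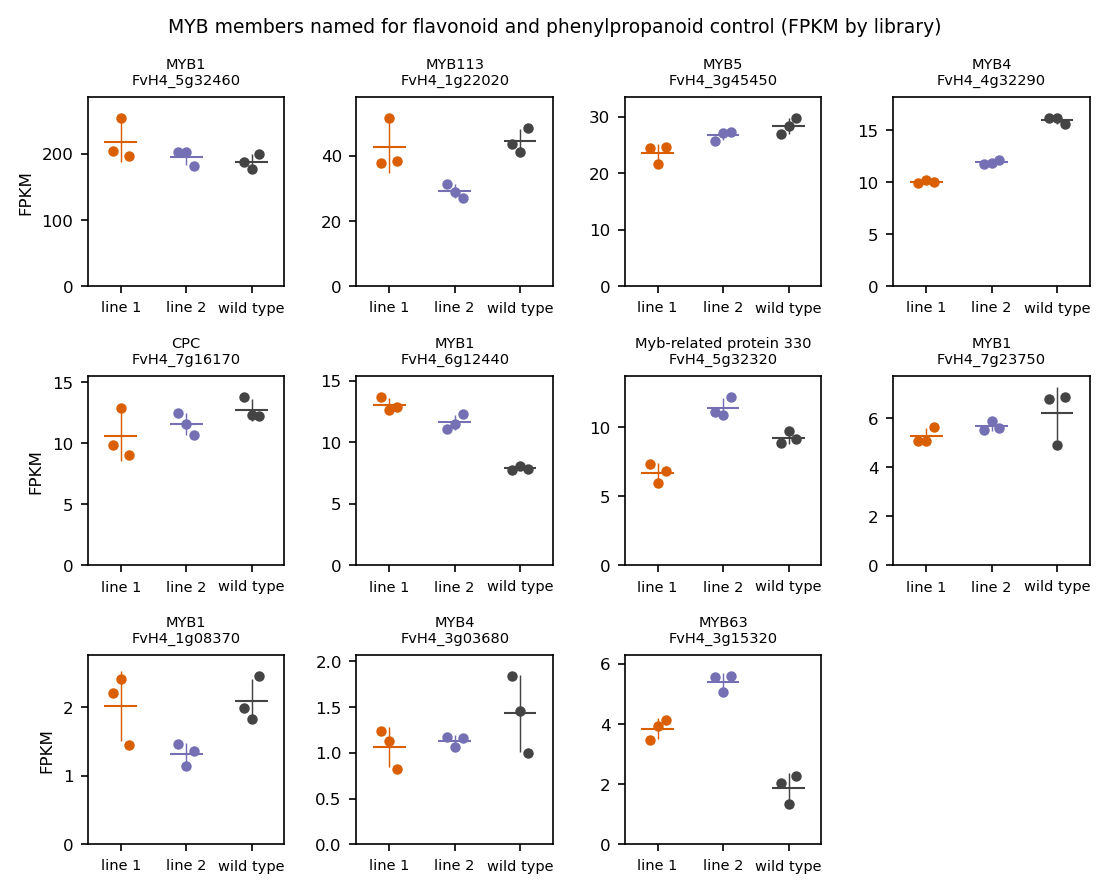
FPKM in each library (points), with the mean (bar) and SD (line) of line 1, line 2 and WT, for the tested R2R3 and R3 members found by flavonoid and phenylpropanoid names, plus MYB63. MYB113 is lowest in line 2, MYB4 FvH4_4g32290 is highest in WT, and MYB63 is lowest in WT.

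Among other R2R3 genes, MYB63 showed the largest rise and MYB73 the largest fall in line 2. FvH4_3g15320 (chromosome 3, 9516245 to 9518983) is matched to MYB63 of Arabidopsis, an activator of lignin synthesis. It had 3.46, 3.94 and 4.15 FPKM in line 1, 5.56, 5.06 and 5.6 in line 2 and 2.05, 1.34 and 2.28 in WT. Every mutant library was above every WT library. MYB63 was 2.04-fold higher in line 1 and 2.86-fold higher in line 2 (limma adjusted p = 0.00137 and 7.69e-05), and both calls held in all 15 alternatives. Vascular markers were summed beside it: 1 of 7 tested genes was higher in both lines together and 0 were lower, of 23 listed, 6 of which were at 0 in all libraries. In line 1 the counts were 1 higher and 0 lower, and in line 2 they were 1 higher and 1 lower. The marker that rose was listed as a secondary wall cellulose synthase subunit 8 gene, FvH4_3g07420, at 41.4 ± 2.33, 28.2 ± 0.199 and 17.5 ± 2.67 FPKM in line 1, line 2 and WT. The subunit 7 and subunit 4 genes of the list, FvH4_1g00670 and FvH4_2g20740, averaged only 0.0739 and 0.0474 FPKM over all libraries and were not tested. The list summed to 116 to 133 FPKM in line 1, 99.6 to 109 in line 2 and 95.6 to 103 in WT, and its part in the MYB63 result was not tested.

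FvH4_2g05210 (chromosome 2, 4308838 to 4309653), matched to MYB73, a stress-responsive regulator of Arabidopsis, had 9.67, 10.5 and 8.26 FPKM in line 1, 2.75, 3.76 and 2.07 in line 2 and 9.17, 10.7 and 13.7 in WT. Only line 2 stood apart, while line 1 overlapped WT. MYB73 was 3.91-fold lower in line 2 than in WT and 3.31-fold lower than in line 1 (adjusted p = 4.89e-05 and 0.000122).

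MYB17 of Arabidopsis acts in the change from leaf to flower development. Its match FvH4_7g13850 had 6.33, 7.51 and 6.43 FPKM in line 1, 4.8, 4.32 and 4.51 in line 2 and 3.53, 3.63 and 3.23 in WT. All mutant libraries lay above WT. The rise was 1.95-fold in line 1 (adjusted p = 0.000118). In line 2 it was 1.31-fold (adjusted p = 0.0272), and that call was lost without WT replicate 1 or 3 or without any of the line 2 replicates (adjusted p = 0.0505 to 0.0963). The antisense gene FvH4_7g13860, which overlaps it by 20 bases, stood at 48.3 ± 7.25, 43.1 ± 3.43 and 50.8 ± 11.6 FPKM in line 1, line 2 and WT, and reads of the overlap cannot be told apart without strand. A match to MYB62, which in Arabidopsis responds to phosphate starvation and lowers gibberellin genes, FvH4_4g27090, had 5.25, 6.6 and 6.02 FPKM in line 1, 4.22, 6.13 and 3.82 in line 2 and 7.79, 7.14 and 7.85 in WT. It was 1.61-fold lower in line 2 (adjusted p = 0.00869) and called lower in both lines together (adjusted p = 0.0159). Without line 2 replicate 2, whose value was the highest of that group, it was also called lower in line 1 (adjusted p = 0.0449) and lower in line 2 than in line 1 (0.0168).

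The second MYB62 match, FvH4_5g11930 (chromosome 5, 6752099 to 6753733), was lowest in line 1. It had 0.227, 0.224 and 0.236 FPKM in line 1, 1.83, 2.02 and 2.18 in line 2 and 1.29, 1.64 and 1.35 in WT, which rests on 11 to 122 fragments per library. The gene was 6.23-fold lower in line 1 than in WT (adjusted p = 6e-05) and 8.77-fold higher in line 2 than in line 1 (adjusted p = 6.74e-06). Its rise in line 2 against WT (adjusted p = 0.0442) was lost without WT replicate 1 or 3, line 1 replicate 1 or 3, or any line 2 replicate (adjusted p = 0.0579 to 0.143). That call was also lost with a pseudocount of 0.1 FPKM, equal FPKM sums or the replicate number as a block (0.0519 to 0.0878).

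The 2 tested genes matched to Myb-related protein 306 of Antirrhinum showed the same pattern as each other. FvH4_5g14970 had 3.59, 2.98 and 3.42 FPKM in line 1, 1.03, 1.12 and 0.995 in line 2 and 2.12, 2.49 and 2.15 in WT. FvH4_6g48630 had 7.46, 7.19 and 6.18 FPKM in line 1, 3.3, 2.74 and 3.49 in line 2 and 5.03, 5.05 and 5.97 in WT. In both genes line 1 was highest and line 2 lowest, with no overlap between the 3 groups. Line 2 was 3.18-fold and 2.19-fold lower than line 1 (adjusted p = 1.89e-05 and 0.000109) and 2.15-fold and 1.68-fold lower than WT (adjusted p = 0.000635 and 0.00201). Against WT the rise in line 1 was called for both (adjusted p = 0.00986 and 0.0411). That of FvH4_6g48630 was lost without WT replicate 1 or 2, line 1 replicate 1 or 2, or line 2 replicate 1 (adjusted p = 0.0585 to 0.132). Over the 19 tested R2R3 genes, 4 were higher, 5 lower and 10 not called in both lines together. The counts were 6 higher and 4 lower in line 1 and 5 higher and 6 lower in line 2. Over all tested genes, 16.8% were higher and 18.1% lower in both lines together, 16.5% and 19% in line 1, and 15.3% and 15.1% in line 2.

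Genes described as partners of R2R3 activators, or as flavonoid, phenylpropanoid or lignin enzymes, were counted beside the members. Which of these enzyme genes are MYB targets in strawberry was not tested. Of 4 tested complex partners, 1 was higher in both lines together and 0 lower, with 16.8% and 18.1% of all tested genes as background. The bHLH gene GLABRA 3 FvH4_5g02520 stood at 2.95 ± 0.158, 3.95 ± 0.094 and 2.27 ± 0.138 FPKM in line 1, line 2 and WT (adjusted p = 0.0336 in line 1 and 0.000514 in line 2). The line 1 call was lost without WT replicate 1 or 3, line 1 replicate 1 or 3, or line 2 replicate 1 or 2 (adjusted p = 0.0524 to 0.106). The bHLH42 gene FvH4_2g23700, of the type that partners anthocyanin MYBs, was at 29.4 ± 3.34, 32.5 ± 2.11 and 32.2 ± 4.19 FPKM and was not called. TTG1 FvH4_7g32970 was at 24.1 ± 4.28, 28.2 ± 1.84 and 33.5 ± 6.39 FPKM, lower in line 1 (adjusted p = 0.0337) and not called in line 2 (0.268). Without WT replicate 3 or line 1 replicate 2, the libraries that stood apart, the line 1 call was lost (adjusted p = 0.101 and 0.0962). In both lines together TTG1 was called without WT replicate 1 or line 1 replicate 1 (0.0467 and 0.0498).

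Of 35 tested genes with a flavonoid enzyme description, 14 were lower, 3 higher and 18 not called in both lines together (median log2 change -0.11), where 18.1% of all tested genes were lower and 16.8% higher. In line 1, 14 were lower and 4 higher (median -0.18), and in line 2, 11 were lower and 8 higher (median 0.06). In line 2 against line 1, 14 were higher and 10 lower. The 3 lowest adjusted p were those of dihydroflavonol 4-reductase FvH4_2g39520, an enzyme of the late anthocyanin steps, of a 2-hydroxyisoflavanone dehydratase, FvH4_4g15000, and of a flavonoid 3-O-glucosyltransferase, FvH4_6g39350. Dihydroflavonol 4-reductase averaged 312 ± 13.6, 184 ± 1.40 and 430 ± 19 FPKM in line 1, line 2 and WT, called lower in each line (adjusted p = 0.000528 and 3.95e-07). The dehydratase averaged 9.34 ± 0.599, 6.90 ± 0.752 and 21 ± 2.29 FPKM, and the glucosyltransferase, the other way, 2.11 ± 0.219, 7.03 ± 0.698 and 1.37 ± 0.213 FPKM. In the phenylpropanoid and lignin list, 8 of 31 tested genes were higher, 6 lower and 17 not called (median log2 change -0.12). The counts were 7 higher and 8 lower in line 1, 7 higher and 7 lower in line 2, and 15 higher and 8 lower in line 2 against line 1. For both lists, the background was 16.5% higher and 19% lower in line 1 and 15.3% and 15.1% in line 2. It was 15.4% higher and 12.2% lower in line 2 against line 1. With equal FPKM sums, 40.5% of those calls over all tested genes were higher in place of 55.9%. Phenylalanine ammonia-lyase FvH4_7g19130, the entry enzyme, averaged 70.6 ± 11.3, 162 ± 8.57 and 42.6 ± 2.17 FPKM and a cinnamyl alcohol dehydrogenase, FvH4_5g10200, 79 ± 1.63, 171 ± 5.88 and 64.9 ± 3.46 FPKM. Cinnamoyl-CoA reductase FvH4_5g26020 fell, at 1.28 ± 0.258, 1.40 ± 0.167 and 6.35 ± 0.599 FPKM.

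Of the 5 clock-type genes, 3 were higher and 0 lower in both lines together, where 16.8% of all tested genes were higher and 18.1% lower. In line 1, 2 were higher and 1 lower (background 16.5% and 19%), and in line 2, 3 were higher and 0 lower (background 15.3% and 15.1%). REVEILLE 7 FvH4_5g18100, a clock-controlled MYB gene in Arabidopsis, had 12.1, 12.8 and 12 FPKM in line 1, 13.1, 13.1 and 13.2 in line 2 and 8.76, 9.31 and 9.2 in WT. No mutant library reached down to a WT value. The rise was 1.35-fold in line 1 and 1.44-fold in line 2 (adjusted p = 0.0016 and 0.000468), and both calls held in all 15 alternatives. The antisense gene FvH4_5g18110, which overlaps REVEILLE 7 by 99 bases, averaged 2.28 ± 0.687, 2.79 ± 0.333 and 2.18 ± 0.482 FPKM in line 1, line 2 and WT. REVEILLE 6 FvH4_7g30300 averaged 14.8 ± 0.418, 12.9 ± 0.776 and 11.6 ± 0.678 FPKM in line 1, line 2 and WT, and was called higher in line 1 (adjusted p = 0.00882). In both lines together its call (adjusted p = 0.0201) was lost without WT replicate 2 (0.0688). REVEILLE 5 FvH4_7g15140 averaged 9.16 ± 0.89, 10.7 ± 1.08 and 8.01 ± 0.193 FPKM and was called higher in line 2 (adjusted p = 0.0131), but not without line 2 replicate 2 or 3 (0.0502 and 0.0604). Its call in both lines together (adjusted p = 0.0268) was lost without WT replicate 1 or 2, line 1 replicate 3 or line 2 replicate 2 or 3 (adjusted p = 0.0506 to 0.0719).

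The morning clock gene LHY (LATE ELONGATED HYPOCOTYL, FvH4_7g17850, chromosome 7, 15035045 to 15044404) had 1.23, 1.23 and 1.05 FPKM in line 1, 3.6, 3.79 and 4.58 in line 2 and 2.99, 2.7 and 2.18 in WT. The 3 groups did not overlap, with line 1 lowest and line 2 highest. LHY was 2.24-fold lower in line 1 than in WT (adjusted p = 0.000966) and 3.4-fold higher in line 2 than in line 1 (adjusted p = 3.03e-05). The rise in line 2 over WT (adjusted p = 0.0137) was lost without line 2 replicate 3 (0.0621). An antisense gene, FvH4_7g17860, overlaps LHY by 743 bases and stood at 7.79 ± 0.699, 8.95 ± 0.954 and 6.93 ± 1.44 FPKM, and without strand the reads of the overlap cannot be told apart. REVEILLE 8 FvH4_6g15160, on 24 to 132 fragments per library, averaged 0.533 ± 0.271, 1.31 ± 0.273 and 0.864 ± 0.123 FPKM and was called between the lines (adjusted p = 0.0105). Without line 1 replicate 1 it was also called lower in line 1 than in WT (adjusted p = 0.045). REVEILLE 8 passed the filter through line 2, where it was high.

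BOA FvH4_3g36890, a GARP factor that belongs to the Arabidopsis clock, was lower in line 2 alone, at 36, 30.8 and 35.5 FPKM in line 1, 23.4, 25.5 and 22 in line 2 and 31.4, 31.9 and 32.1 in WT. The fall was 1.35-fold against WT and 1.44-fold against line 1 (adjusted p = 0.00341 and 0.000941). Of 14 other clock genes tested, 2 were higher, 1 lower and 11 not called in both lines together, where 16.8% of all tested genes were higher and 18.1% lower. The 3 with the lowest adjusted p were ELF4-LIKE 3 FvH4_7g24450 (10 ± 0.226, 8.5 ± 1.13 and 13.7 ± 1.61 FPKM in line 1, line 2 and WT), LNK3 FvH4_7g03880 (11.8 ± 1.08, 11.6 ± 0.848 and 9.2 ± 0.339) and GIGANTEA FvH4_2g13030 (37.1 ± 3.19, 36.1 ± 0.961 and 28.7 ± 5.92). The call of GIGANTEA in both lines together (adjusted p = 0.0338) was lost without WT replicate 3, line 1 replicate 1 or 3, or any line 2 replicate (adjusted p = 0.0561 to 0.0794). The labels give no hour of picking, so clock phase and genotype cannot be told apart here.

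Of the DIVARICATA and MYBS type, 1 of 10 tested genes was higher and 0 lower in both lines together, with 16.8% and 18.1% of all tested genes as background. That gene was KUA1, which was lower than WT in line 1. The counts were 3 higher and 2 lower in line 1 (background 16.5% and 19%) and 1 higher and 1 lower in line 2 (background 15.3% and 15.1%). KUA1 in Arabidopsis is a single-repeat factor that controls leaf cell expansion and represses peroxidase genes. Its match FvH4_1g07170 (chromosome 1, 3794381 to 3796052) had 4.1, 3.4 and 4.33 FPKM in line 1, 15.8, 16.1 and 15.3 in line 2 and 6.72, 6.84 and 5.17 in WT. Line 2 was far above the other groups, and line 1 lay below WT without overlap. KUA1 was 2.51-fold higher in line 2 than in WT, 1.58-fold lower in line 1 than in WT and 3.98-fold higher in line 2 than in line 1 (adjusted p = 2.05e-05, 0.00409 and 1.12e-06). Each of these calls held in all 15 alternatives, while that for both lines together (adjusted p = 0.0234) was lost without WT replicate 3 (0.079). RADIALIS-like 1 FvH4_2g08980 showed the opposite order on few fragments (6 to 41 per library), at 1.07, 1.25 and 1.46 FPKM in line 1, 0.312, 0.228 and 0.376 in line 2 and 0.407, 0.414 and 0.862 in WT. It was called higher in line 1 than in WT (adjusted p = 0.0123) and lower in line 2 than in line 1 (adjusted p = 0.0016). The gene passed the filter only through line 1, where it was high.

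The most abundant genes of this type did not pass the test. DIVARICATA FvH4_3g38150, named for a regulator of petal shape in Antirrhinum, averaged 30.5 ± 2.69, 30.5 ± 0.96 and 30 ± 0.843 FPKM in line 1, line 2 and WT, with log2 changes of 0.02 ± 0.08 (SE) in each line. MYB1R1 FvH4_5g16170, named for a drought-responsive potato gene, had 25.6, 25 and 25.7 FPKM in line 1, 29.1, 31 and 33.6 in line 2 and 21.2, 26.2 and 31.1 in WT. The WT libraries spread widely, and without WT replicate 3 MYB1R1 was called higher in line 2 (adjusted p = 0.0139). Without WT replicate 1 or 3 it was called higher in line 2 than in line 1 (adjusted p = 0.0369 and 0.0285).

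Of 13 tested GARP factors, 3 were higher and 1 lower in both lines together, with 16.8% and 18.1% of all tested genes as background. In line 1, 2 were higher and 1 lower (background 16.5% and 19%), and in line 2, 5 were higher and 3 lower (background 15.3% and 15.1%). HHO3 FvH4_4g27990 (chromosome 4, 28774220 to 28776711), of a family of nitrate-inducible repressors, was the second most abundant MYB-domain gene. It had 47.3, 50.1 and 48.4 FPKM in line 1, 73.4, 71.6 and 72.7 in line 2 and 49.9, 48.7 and 49.5 in WT. Line 1 overlapped WT, and line 2 was above both, 1.47-fold over WT and 1.49-fold over line 1 (adjusted p = 6.45e-05 and 4.54e-05). PHL7 FvH4_3g00070, of the MYB-CC family that also holds the phosphate starvation regulator PHR1, averaged 33.7 ± 0.986, 34.5 ± 1.24 and 28.8 ± 1.19 FPKM. It was called higher in line 1 (adjusted p = 0.0277; 0.0573 without WT replicate 1 and 0.0976 without line 1 replicate 1) and in line 2 (0.0164; 0.0683 and 0.0632 without line 2 replicate 1 or 2). In both lines together its call held in all 15 alternatives.

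IPN2 in Lotus interacts with a nodulation regulator. Its match FvH4_3g14050 had 2.67, 3.7 and 3.19 FPKM in line 1, 2.29, 2.53 and 2.86 in line 2 and 1.57, 1.52 and 1.5 in WT. All mutant values were above WT, by 2.09-fold in line 1 and 1.68-fold in line 2 (adjusted p = 0.000867 and 0.00851). GLK1, a regulator of chloroplast development, was chosen after its values were seen, as the remaining member that moved oppositely in the lines. FvH4_6g26660 had 0.0917, 0.158 and 0.313 FPKM in line 1, 1.29, 1.06 and 1.15 in line 2 and 0.468, 0.375 and 0.75 in WT, on 17 to 225 fragments per library. Line 2 was 6.22-fold above line 1 (adjusted p = 0.000542), but GLK1 passed the filter only through line 2, where it was high. Its fall in line 1 against WT (adjusted p = 0.0491) was lost without WT replicate 1 or 3, line 1 replicate 1 or 2, or any line 2 replicate (adjusted p = 0.0646 to 0.155), and its rise in line 2 (0.0134) without line 2 replicate 1 (0.051). MYBC1 FvH4_6g25730, named for an Arabidopsis gene of freezing tolerance, averaged 26.8 ± 4.43, 26.3 ± 1.71 and 31 ± 2.45 FPKM and was not called, except in line 2 without line 1 replicate 2 (adjusted p = 0.0485).

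Of 4 tested telomere repeat-binding genes, limma called 0 in any comparison and 0 had an unadjusted p under 0.05, and their log2 changes lay between -0.14 and 0.18 in the single lines. Of 7 complex proteins, 2 were higher and 0 lower in both lines together (34.9% of all tested genes were called), both named ALWAYS EARLY after a Drosophila regulator. ALWAYS EARLY 2 FvH4_6g06170 averaged 9.67 ± 0.332, 11.1 ± 1.02 and 8.35 ± 1.10 FPKM in line 1, line 2 and WT. Its call in both lines together (adjusted p = 0.0295) was lost without WT replicate 3, line 1 replicate 1 or 3, or line 2 replicate 2 or 3 (adjusted p = 0.0512 to 0.0979), and its call in line 2 (0.0183) without line 2 replicate 2 or 3 (0.0513 and 0.0797). The other, ALWAYS EARLY 3 FvH4_4g17660, was named after its values were seen. It had 14.9, 14.6 and 14.9 FPKM in line 1, 18.3, 18.3 and 20 in line 2 and 14.9, 14.7 and 11.4 in WT, and line 1 overlapped WT (adjusted p = 0.4 in line 1 and 0.00719 in line 2). Its call in both lines together (adjusted p = 0.0296) was lost without WT replicate 3, line 1 replicate 1 or 3, or line 2 replicate 3 (adjusted p = 0.0521 to 0.0751).

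Among members without a class, MOF1 and 2 genes with no Swiss-Prot match were named by the rule. MOF1 regulates the number of florets in rice. Its match FvH4_4g35980 (chromosome 4, 33090503 to 33094170) had 5.3, 4.32 and 4.87 FPKM in line 1, 6.15, 5.09 and 6.66 in line 2 and 2.85, 2.84 and 2.53 in WT. Every mutant value was above every WT value, by 1.76-fold in line 1 and 2.18-fold in line 2 (adjusted p = 0.00152 and 0.000161). FvH4_6g22470, which also lists a bromodomain, a module that binds acetylated histones, had 3.74, 3.16 and 2.93 FPKM in line 1, 6.66, 6.39 and 7.9 in line 2 and 5.19, 4.9 and 3.27 in WT. It was 2.13-fold higher in line 2 than in line 1 (adjusted p = 0.00106). Against WT its rise in line 2 (adjusted p = 0.0153) was lost without line 2 replicate 3 (0.0659), and without WT replicate 3 it was called lower in line 1 (0.00946). FvH4_7g00180 averaged 0.613 ± 0.152, 0.897 ± 0.0937 and 1.29 ± 0.126 FPKM and was called lower in both lines together (adjusted p = 0.0119) and in line 1 (0.00632). This gene passed the filter only through WT, where it was high.

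**Figure D4:**
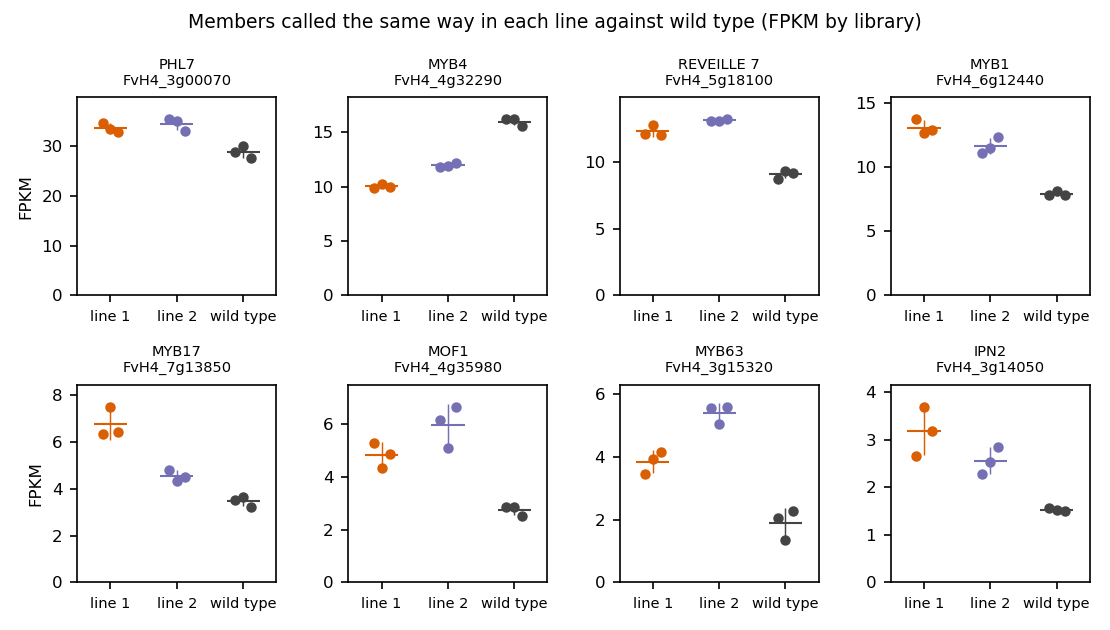
FPKM in each library (points), with the mean (bar) and SD (line) of line 1, line 2 and WT, for the 8 members called the same way in each line against WT. WT is lowest in 7 of them and highest in MYB4, and its place at an end follows from how the members were chosen.

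Put side by side, 7 members were called higher in each line against WT (10.4% of 67, with 6.83% of all tested genes as background) and 1 was called lower in each (background 7.76%). The 7 were PHL7 FvH4_3g00070, MYB1 FvH4_6g12440, REVEILLE 7, MYB17, MOF1, MYB63 and IPN2. Both line calls held in all 15 alternatives for 6 of these 8 members, the exceptions being PHL7 and MYB17. Another 7 members were called in opposite directions in the lines, 10.4% of 67, where 2.68% of all tested genes were. In 5 of them line 1 was lowest and line 2 highest (LHY, KUA1, Myb-related protein 330, MYB62 FvH4_5g11930 and GLK1), and in the pair matched to Myb-related protein 306 the order was the reverse. GLK1 passed the filter only through line 2, where it was high. All 7 were called in line 2 against line 1, and that call held in all 15 alternatives for 7 of 7. Since these members were picked for opposite calls against the same WT, a difference between the lines largely follows from the choice and is no added support. Both calls against WT held in all 15 for 2 of 7, KUA1 and Myb-related protein 306 FvH4_5g14970.

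**Figure D5:**
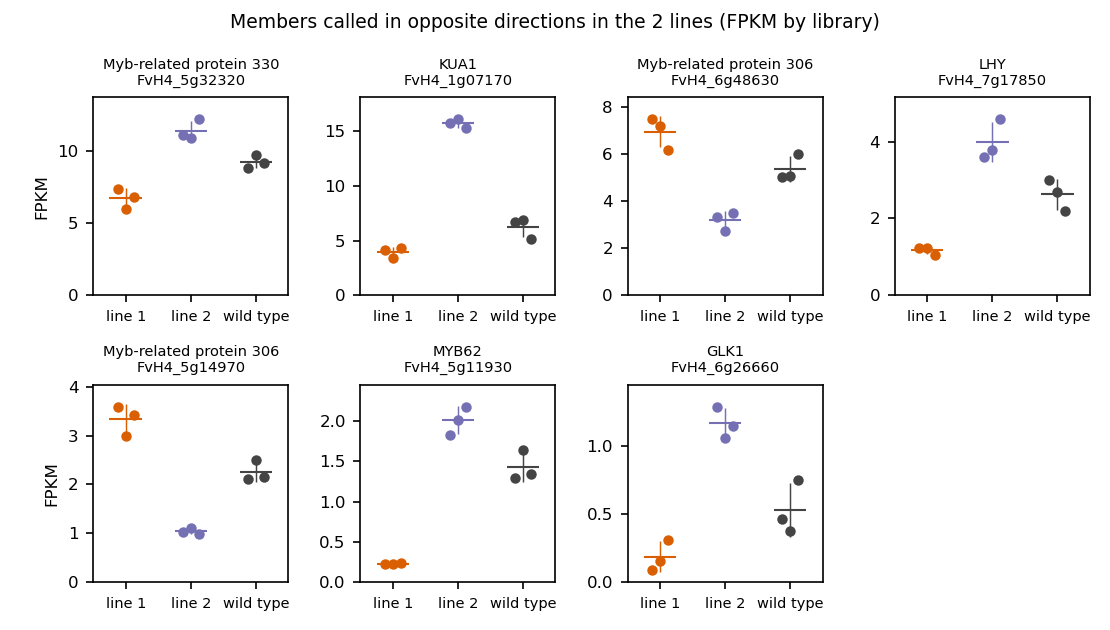
FPKM in each library (points), with the mean (bar) and SD (line) of line 1, line 2 and WT, for the 7 members called in opposite directions in the lines. WT lies between the lines in each panel, which follows from how the members were chosen. Line 2 is the lower line only in the pair matched to Myb-related protein 306.

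The 103 members under the filter reached at most 1.36 FPKM in any library. That maximum belonged to FvH4_5g17111, matched to MYB3, an R2R3 repressor of Arabidopsis, which lay just outside the filter and was chosen for mention after its values were seen, as were the others in this paragraph. It had 0.227, 0.62 and 0.66 FPKM in line 1, 0.161, 0.235 and 0.0775 in line 2 and 1.1, 0.97 and 1.36 in WT, with all 6 mutant libraries below WT. Among the tested members, GLK1 and RADIALIS-like 1, given above, had the lowest means. With no filter, 54 more members entered the fit, and 2 were lower and 0 higher in both lines together. These were MYB3 FvH4_5g17111 (log2 change -0.70, limma adjusted p = 0.00238) and a match to MYB4 of rice, FvH4_6g44340 (-0.33, adjusted p = 0.0345). WER FvH4_6g38680, named for a regulator of root epidermis, had 0.422, 0.626 and 0.33 FPKM in line 1, 0.965, 1.04 and 0.996 in line 2 and 0.315, 0.465 and 0.66 in WT, higher in line 2 than in WT without the filter (adjusted p = 0.0178).

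Few of the members that lay next to each other were expressed. Of the 170, 26 lay within 20000 bases of another member, in 15 adjacent pairs, and 4 of these 26 were tested, against 67 of 170 in all. The longest run was on chromosome 2, where 6 members from FvH4_2g31020 to FvH4_2g31100, named MYB1, MYB3 or MYB123, averaged at most 0.0537 FPKM over all libraries. The tested MYB1 gene FvH4_1g08370 lay 7111 bases from FvH4_1g08390, which carries the same match and averaged 0.0608 FPKM. Neighbouring copies may share reads, and how the authors' counting treated such reads is not given in the sources used here.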

How the data were processed

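Poly(A) RNA of 9 fruit samples was sequenced, and the authors deposited FPKM values in 1 table with a column per library. Per the submitters' processing notes the tools were fastp, HISAT2 (version 2.2.1), StringTie (version 2.2.3) and featureCounts (version 2.0.6). Their roles, the strand setting and the genome build are not given in the sources used here. Multiplying FPKM by the listed gene length gave whole fragment numbers for 100% of values above 0 (within 0.02), which were used only for depth, 31587667 to 51649115 fragments per library. Replicates varied more than counting alone would give, with a chi-square per gene of 4.45 to 58.2.

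The test was limma 3.58.1 in R 4.3.3 on log2(FPKM + 1), with 1 mean per group, no covariate, and variances moderated toward a trend with level. It covered 15890 genes, and two-sided p-values were adjusted by Benjamini-Hochberg over all of them, with a threshold of 0.05. The fit was tested on simulated data. Folds are ratios of mean FPKM and exceed the log2 changes on FPKM + 1 for low genes. SDs are between libraries.

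The members and lists were chosen with earlier results of these data known. Classes and lists are word patterns on descriptions, and 4 words were added once the members were listed. Named members were the 8 largest called rises and falls of both lines together without overlap, the 4 largest of each other comparison, the 8 most abundant, and all tested ones with a flavonoid or clock name. Members called in each line were added later. Alternatives were a pseudocount of 0.1 FPKM, no filter, equal FPKM sums, median-of-ratios scaling, the replicate number as a block, each library left out and, chosen after seeing the data, both libraries that stood apart left out together.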

Additional observations from a re-analysis of the deposited data

Results flagged for a closer look

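The levels of 17 named members differed between the 2 mutant lines, by limma's test of line 2 against line 1 (adjusted p under 0.05). Log2 differences are line 2 minus line 1 on FPKM + 1, and no explanation was tested. Line 2 was higher for KUA1 FvH4_1g07170 (1.76), MYB62 FvH4_5g11930 (1.29), LHY FvH4_7g17850 (1.20), FvH4_6g22470 with a bromodomain (0.90), GLK1 FvH4_6g26660 (0.87), Myb-related protein 330 FvH4_5g32320 (0.69), REVEILLE 8 FvH4_6g15160 (0.60) and HHO3 FvH4_4g27990 (0.57). MYB63 FvH4_3g15320 (0.40) and MYB4 FvH4_4g32290 (0.23) were also higher in line 2 than in line 1. The MYB63 call was lost without any 1 of the line 1 or line 2 replicates (adjusted p = 0.0585 to 0.132), among them line 1 replicate 2 (0.0714), which stood apart. A pseudocount of 0.1 FPKM, no filter or equal FPKM sums also lost it (0.0737 to 0.0817). The MYB4 call was lost without line 1 replicate 1 or 3 or any line 2 replicate (adjusted p = 0.0623 to 0.0825). Equal FPKM sums (log2 difference 0.15, adjusted p = 0.211) and the replicate number as a block (0.0632) also lost the MYB4 call. REVEILLE 8 was not called against wild type in either line (adjusted p = 0.138 in line 1 and 0.133 in line 2). GLK1 and RADIALIS-like 1 passed the filter only through the group where they were high, and REVEILLE 8 passed it through line 2, where it was high. Line 2 was lower for MYB73 FvH4_2g05210 (-1.46), the pair matched to Myb-related protein 306, FvH4_5g14970 (-1.08) and FvH4_6g48630 (-0.93), RADIALIS-like 1 FvH4_2g08980 (-0.79), MYB113 FvH4_1g22020 (-0.52), BOA FvH4_3g36890 (-0.51) and MYB17 FvH4_7g13850 (-0.48).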

How the results depend on the processing

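Of 77 calls of named members over the 4 comparisons, 56 held in all 15 alternatives, 21 were lost in at least 1, and 0 turned direction. Counts of called members stayed within 1.5 times under every alternative except for line 2 against wild type, where leaving out each library in turn gave 18 to 32 members called in all and 10 to 20 higher (29 and 19 with all libraries). Under the same alternatives the counts in all were 15 to 23 for both lines, 19 to 26 for line 1 and 22 to 29 for line 2 against line 1. Same-numbered libraries did not deviate together (r of -0.262 to 0.164 over 9 pairs, 1 over 0.1, and 1 of 9 libraries closest to its own number). The main test therefore used no pairing by number, though 3 libraries per group cannot exclude one. With the replicate number as a block, 17 members were called in both lines, 20 in line 1, 24 in line 2 and 24 in line 2 against line 1. A planned voom fit with TMM scaling is left out, since the deposited values are not counts. Depth limits the members near or under 1 FPKM, such as RADIALIS-like 1 with 6 to 41 fragments per library.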
